A study of Mus musculus with 4 samples.

Results

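SCL binding was described at 10 genes of heme synthesis and iron handling, Glrx5, Alas1, Alas2, Alad, Urod, Cpox, Fech, Slc25a37, Slc25a38 and Tfrc. A peak was counted for a gene when the transcription start site (TSS) nearest to its summit, among all protein-coding genes, belonged to that gene. This gave 19 of the 12885 SCL peaks in the deposited list. The study itself counts fewer bound loci. Its methods name a genome viewer with which peaks were filtered, but the limits of that filter were not known here. Ranks and shares therefore refer to the whole deposited list. The 19 peaks fell at 9 of the 10 genes, and Alas1 had none. Alas2 carried the highest peak of the group, 158.7-fold over background, and Glrx5 the most peaks, 8.

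The haematopoietic transcription factor SCL (gene symbol Tal1) was mapped by chromatin immunoprecipitation and sequencing (ChIP-seq) in FLK1+ mesoderm, sorted on the VEGF receptor FLK1 from embryoid bodies at day 3.5 of differentiation. Wild-type mouse embryonic stem cells were used, the J1 line by the study's methods and strain C57Bl/6 X Sv129 by the labels. There were 2 libraries precipitated with an in-house rabbit anti-serum against SCL and 2 input libraries with no antibody, from 2 independent differentiations. The peak list is 1 call on the merged libraries, so no value had a replicate error and no test between samples was possible. There was 1 cell population and no condition to compare, and binding was not set against RNA levels here.

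Heme is made in a chain of enzyme steps that begins and ends in the mitochondrion. The first step joins glycine to succinyl-CoA and is carried out by ALAS1 in most tissues and by ALAS2 in red cell precursors, and the last puts iron into the finished ring. Developing red cells take up iron bound to transferrin through a surface receptor and pass it into the mitochondrion, where part of it is built into iron-sulphur clusters. SCL binds DNA with an E protein partner at E-boxes and, in haematopoietic cells, sits in complexes with GATA factors, LMO2 and LDB1.

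The bases around the summits are shown here for the strongest peak of 7 of the 9 genes, each with a GATA motif, with the other Alas2 peak and the second strongest Glrx5 peak added after their values were seen. Each is a window of 101 bases centred on the summit, read from the NCBIM37 (mm9) genome on the forward strand of the chromosome, 5′ to 3′. Capitals mark GATA motifs (GATA after an A or T and before an A or G), E-boxes (CANNTG) and, for the composite motif, its CTG. The composite is CTG followed on the same strand by GATA after 7 to 9 bases, and it can share its GATA with a GATA motif. All were searched on both strands, so a GATA motif on the reverse strand reads as TATC within the capitals.
Alas2 intron 1, chrX:146984305-146984405: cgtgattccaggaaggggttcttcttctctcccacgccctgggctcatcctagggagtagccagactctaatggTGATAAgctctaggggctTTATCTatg
Alas2 intron 8, chrX:146999357-146999457: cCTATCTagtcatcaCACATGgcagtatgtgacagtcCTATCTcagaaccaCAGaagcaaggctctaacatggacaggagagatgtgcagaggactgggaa
Alad intron 1, chr4:62177762-62177862: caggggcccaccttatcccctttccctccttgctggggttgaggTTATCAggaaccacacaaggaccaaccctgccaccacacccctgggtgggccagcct
Urod intron 1, chr4:116666339-116666439: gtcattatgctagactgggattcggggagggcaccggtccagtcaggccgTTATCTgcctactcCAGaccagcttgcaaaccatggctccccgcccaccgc
Glrx5 intron 1, chr12:106272717-106272817: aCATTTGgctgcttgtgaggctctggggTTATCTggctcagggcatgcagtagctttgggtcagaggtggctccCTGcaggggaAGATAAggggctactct
Glrx5 upstream, chr12:106264002-106264102: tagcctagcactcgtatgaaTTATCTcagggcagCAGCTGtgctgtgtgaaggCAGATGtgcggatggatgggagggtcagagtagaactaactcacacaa
Slc25a37 intron 1, chr14:69896147-69896247: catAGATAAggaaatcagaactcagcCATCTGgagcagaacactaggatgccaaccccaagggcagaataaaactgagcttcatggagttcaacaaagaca
Slc25a38 intron 1, chr9:120024889-120024989: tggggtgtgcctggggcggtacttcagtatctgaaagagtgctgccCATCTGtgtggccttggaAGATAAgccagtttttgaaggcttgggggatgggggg
Tfrc promoter, chr16:32608255-32608355: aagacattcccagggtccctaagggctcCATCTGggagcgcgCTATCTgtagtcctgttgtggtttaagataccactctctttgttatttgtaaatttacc

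The first window, in Alas2, has a pair of GATA motifs on opposite strands, 12 bases apart, and no E-box. In the windows of Urod and of Alas2 intron 8 a CAG stands 9 bases after a reverse-strand GATA, which is the composite read from the other strand. A match of letters is a description of the window and was not tested as a binding site. The strongest peaks of Cpox, whose window reaches into the transcribed region, and of Fech also held a GATA motif but are described without their sequence.

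The fold enrichment of a peak, as the authors' peak caller gives it, divides the ChIP fragments that cover the summit by the local background, with 1 added to each. Both terms were recovered from the deposited values, and the 95% confidence intervals given are exact Poisson intervals of the fragment number. They cover counting error only, with the background taken as fixed. The sequencing depth of each library is unknown from the list. The median fold of the 19 peaks was 15.1 (95% confidence interval of the median 8.88 to 27.2), against 11.1 (11.0 to 11.4) over the list. This interval and the Wilson intervals of shares given below treat the peaks as independent draws, although 8 of the 19 were at Glrx5. They are therefore descriptive only. Of the 19, 13 reached a fold of 10 (68.4%), against 56.6% of all peaks. The 19 ranged from 6.09 to 158.7, 7 were above the upper quartile of the list (20.1) and 3 below its lower quartile (7.84).

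**Figure D1:**
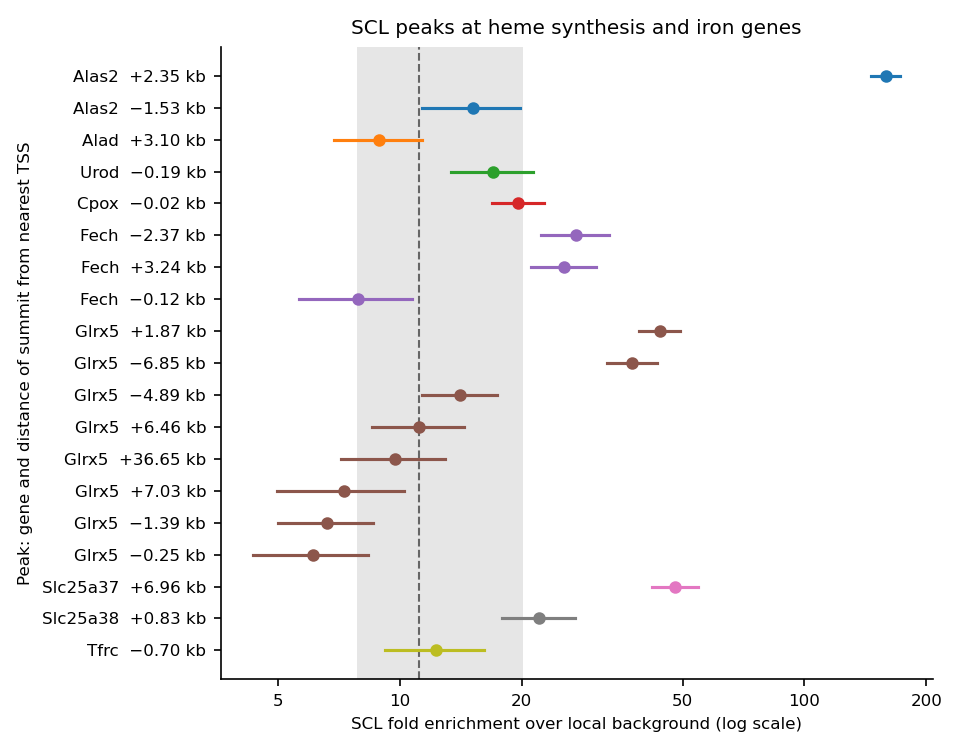
Fold enrichment (log scale) of the 19 SCL peaks, with 95% Poisson intervals of the summit fragments as lines, labelled by gene and by distance of the summit from the nearest TSS (plus downstream, minus upstream). The dashed line is the median of all 12885 peaks (11.1) and the grey band their quartiles (7.84 to 20.1), and the Alas2 peak at +2.35 kb stands apart from the other 18.

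Alas2 encodes the erythroid form of the first and rate-limiting enzyme, and its introns are known to hold GATA-dependent enhancers in red cell precursors. Its first peak (chrX:146984071-146984614) had 544 fragments at the summit over a background of 2.43, a fold of 158.7 (145.7 to 172.6). It was the highest of the 283 peaks on the X chromosome and number 59 in the whole list. The summit lay in intron 1 of an 11-exon transcript, 2353 bp downstream of the TSS. The second peak (chrX:146999268-146999562) had 51 fragments and a fold of 15.1 (11.3 to 19.8), and its summit lay in intron 8, 15052 bp from the first. The intervals of the 2 peaks were far apart, with the intron 1 peak the higher. Both summits also lie within the annotated gene Apex2, whose own nearest TSS was 36395 and 21343 bp away. The background at both was the genome-wide minimum of the peak caller, which 1893 peaks of the list shared. The X chromosome as a whole had a median background at that minimum and a median fold of 12.8.

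Alas1, the form of the same enzyme used by most cells, had no peak in the list. The nearest (chr9:106300109-106300385) was 149759 bp from the gene, had a fold of 9.90 and was nearest to Dusp7. The list holds only called peaks, so binding below its threshold at Alas1 was not measured.

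Alad, Urod and Cpox, enzymes of middle steps, each had 1 peak, with folds of 8.88 to 19.6. Alad joins the product of the first step into a pyrrole. Its peak (chr4:62177681-62177934) lay in intron 1, 3103 bp downstream of the TSS, with 64 fragments and a fold of 8.88 (6.87 to 11.3). This was the lowest strongest peak of the 9 genes, and its background of 6.32 was above the list median of 3.67. Urod removes carboxyl groups from the ring. Its peak (chr4:116665972-116666513) had 73 fragments and a fold of 17.0 (13.4 to 21.3), 187 bp upstream of an internal TSS and 629 bp inside the gene, in intron 1. The TSS of the neighbouring gene Hectd3 was 1533 bp from that summit.

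Cpox, which carries out the next step, an oxidation, had the peak closest to a TSS. The summit of the Cpox peak (chr16:58670088-58670661) was 18 bp upstream of the TSS, with 183 fragments over a background of 8.38 and a fold of 19.6 (16.9 to 22.6). That background was the highest of the 19. The fragment number was the fifth in order among the 19, while the fold was below those of 7 peaks. A GATA motif lay 22 to 27 bases after the summit, just inside the transcribed region.

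Fech encodes ferrochelatase, which inserts the iron. Its 3 peaks on chromosome 18 lay within 5612 bp around the 5′ end of the gene. The first (64650806 to 64651232) was 2374 bp upstream, with 106 fragments and a fold of 27.2 (22.3 to 32.8), and held a GATA motif and the composite. The second (64645309 to 64645646) was 3236 bp downstream in intron 1, with 118 fragments and a fold of 25.5 (21.1 to 30.5), and held neither motif within 50 bases of its summit. The intervals of these 2 peaks overlapped, and their difference was not tested. The third (64648743 to 64648962), 116 bp upstream of the TSS, had 38 fragments and a fold of 7.86 (5.62 to 10.7), below both of the others. So at Fech the peak at the promoter was the lowest of the 3.

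Glrx5 encodes a mitochondrial glutaredoxin of iron-sulphur cluster assembly, needed for heme synthesis in red cells. The gene is short, with 2 exons (chr12:106270899-106279120), and 8 peaks were nearest to it. Only 120 protein-coding genes of 22238 had as many. The highest (chr12:106272413-106272999) lay in intron 1, 1868 bp downstream of the TSS, with 296 fragments and a fold of 43.9 (39.1 to 49.2). The second (chr12:106263849-106264210) lay 6847 bp upstream, with 194 fragments and a fold of 37.6 (32.5 to 43.2). The intervals of these 2 overlapped, and both stood above the other 6.

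Those 6 Glrx5 peaks had 30 to 87 fragments. In order of fold they were at 4895 bp upstream (14.1), 6462 bp downstream in the intron (11.2), 36650 bp downstream and outside the gene (9.70), 7032 bp downstream in the intron (7.26), 1389 bp upstream (6.60) and 248 bp upstream (6.09). The peak at 1389 bp lay in the small RNA gene Scarna13, and the most distant one was the only peak of the 19 more than 10 kb from its gene. The peak nearest to the TSS had the lowest fold (4.34 to 8.33). Its interval overlapped those of the peaks at 1389 bp upstream (4.99 to 8.57) and at 7032 bp (4.97 to 10.3) and 36650 bp downstream (7.13 to 12.9). The differences between these peaks were not tested. The other 7 summits spanned 13879 bp, and a stretch of that length held 7 or more summits in 2 places of the list, Glrx5 included. The background over the 8 peaks ran from 3.27 to 7.34 (median 4.72), against a list median of 3.67.

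**Figure D2:**
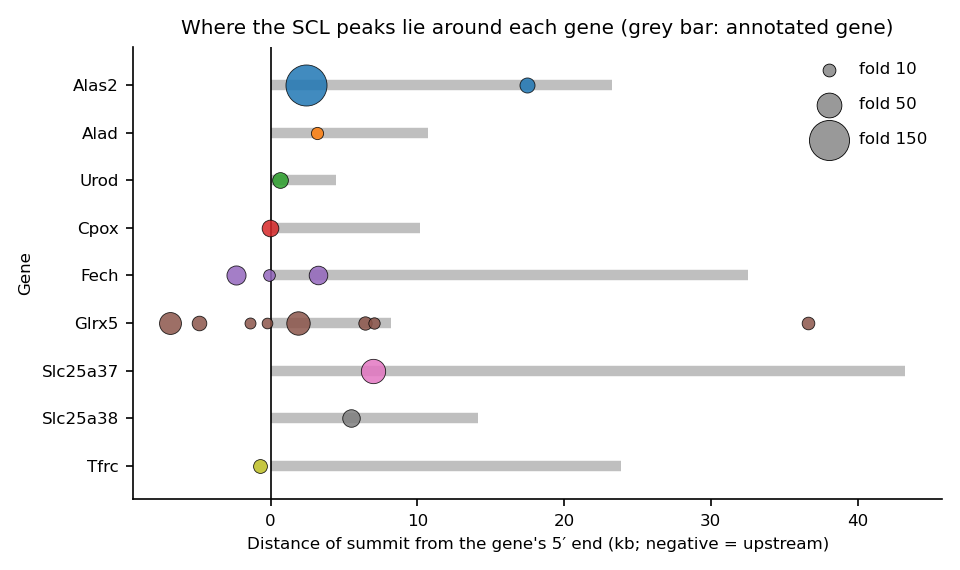
Summits of the 19 peaks by distance from the 5′ end of their gene (kb, in the direction of transcription, negative upstream), 1 row per gene. The area of a circle grows with fold, and the grey bar is the annotated gene. The 8 Glrx5 peaks lie on both sides of a short gene, and single peaks lie in the first intron of Alad, Urod, Slc25a37 and Slc25a38.

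The carriers of the inner mitochondrial membrane each had 1 peak in intron 1. Slc25a37 (mitoferrin-1) brings iron into the mitochondrion of red cell precursors. Its peak (chr14:69895560-69896586) lay 6963 bp downstream of the TSS and had 230 fragments and a fold of 48.0 (42.0 to 54.6), number 1007 in the list. At 1027 bp it was the widest of the 19 (median 427 bp, 397 bp over the list). Slc25a38 is the carrier thought to supply glycine for the first step. Its peak (chr9:120024774-120025091) had 92 fragments and a fold of 22.1 (17.9 to 27.1), 832 bp downstream of an internal TSS and 5447 bp from the 5′ end of the gene. The interval of the Slc25a37 peak lay above that of Slc25a38 and overlapped that of the highest Glrx5 peak.

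Tfrc encodes the transferrin receptor, through which cells take up iron. Its peak (chr16:32607990-32608442) lay 701 bp upstream of the TSS with 50 fragments over a background of 3.14, a fold of 12.3 (9.20 to 16.1). Of the strongest peaks of the 9 genes, only that of Alad was lower, and their intervals overlapped.

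**Figure D3:**
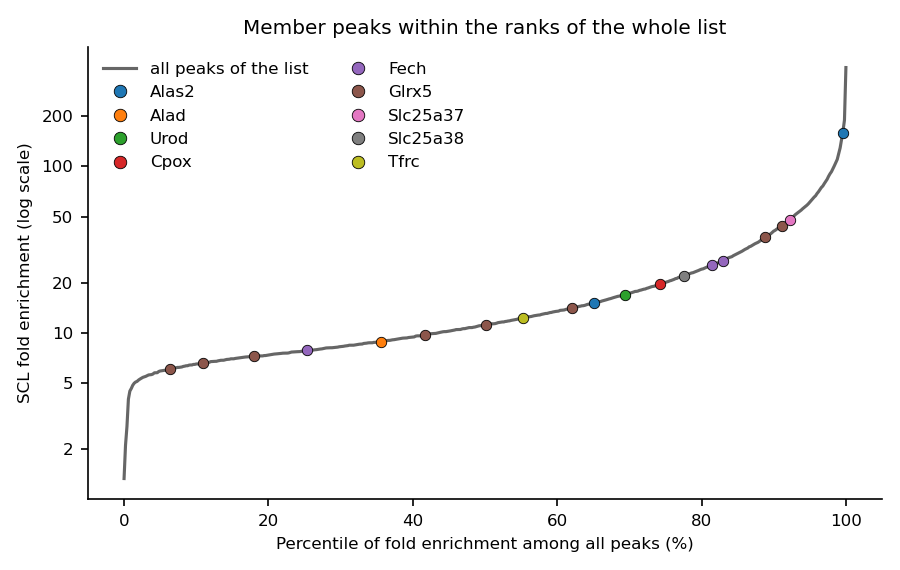
Fold enrichment (log scale) against percentile for all 12885 peaks (grey line), with the 19 peaks as points coloured by gene. Alas2 lies at the 99.5th percentile and its second peak at 65.2, and the Glrx5 peaks run from 6.36 to 91.1.

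Across genes, 9 of 10 had at least 1 peak, where 29.0% of all protein-coding genes did. At least 2 peaks were found at 3 genes (Alas2, Fech and Glrx5), against 12.8% of all. The strongest peak per gene had a median fold of 22.1 over the 9 genes, against 14.4 over the 6458 genes with a peak. In a list of other heme and iron genes given further on, that median was also 22.1, over 15 genes. Since the genes were chosen with results of these data known, these shares are descriptions and were not tested.

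The 19 summits lay near TSSs, at a median distance of 2353 bp against 24135 bp over the list. Within 1 kb of a TSS there were 6 (31.6%, Wilson 95% confidence interval 15.4 to 54.0%), against 7.59% of all peaks. They belonged to Urod, Cpox, Fech, Glrx5, Slc25a38 and Tfrc. The rule takes the nearest TSS but sets no limit on distance. An intron held 10 of the 19 (52.6%), against 42.2% of all. Intron 1 of the gene of the nearest TSS held 9 of the 19, against 13.6% of all 12885 peaks. The 9 peaks not in an intron lay outside coding genes (47.4%, against 54.8% of all). None was in an exon, where 387 of all 12885 peaks were, a share that 19 peaks cannot be told apart from. Upstream of the nearest TSS there were 10 and downstream 9, with 48.9% of all peaks upstream. Without the 8 Glrx5 peaks the share within 1 kb was 45.5% and the median fold 19.6.

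A GATA motif lay within 50 bases of the summit in 15 of the 19 peaks (78.9%), against 73.2% of all summit windows of that length. The strongest peaks of all 9 genes had one, Cpox and Fech included, against 76.5% of the strongest peaks of the 6458 genes with a peak. Windows of the same length 1 kb away from the summits of the list had it in 17.8%. The share at these genes was thus close to that of the list.

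The composite was found in 8 (42.1%, Wilson 23.1 to 63.7%), against 32.9% of all windows and 3.07% of those 1 kb away. Around the midpoint of the peak in place of the summit the order turned, with 15.8% against 22.2% of all. Of the 8 at the summit, 5 were at Glrx5, and the others at Alas2, Urod and Fech. The spacing was 9 bases in 6 and 8 bases in 2. Without Glrx5 the share was 27.3%. With neither motif there were 3 peaks, at Fech intron 1 and at the 2 Glrx5 summits closest to its TSS.

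An E-box was found in 8 (42.1%, Wilson 23.1 to 63.7%), against 52.6% of all windows and 42.4% of those 1 kb away. Both lay within the interval, so the share cannot be told apart from either. With 100 bases on each side of the summit, the E-box share was 73.7%, against 73.6% of all peaks. The window with the E-box CAGCTG is counted among those 8. This E-box was found in 1 (5.26%, the upstream Glrx5 peak printed above), against 14.1% of all and 4.70% of windows 1 kb away. The windows of Slc25a37, Slc25a38 and Tfrc each hold the E-box CATCTG and a GATA motif without the composite. In Slc25a38 it covers the summit. The short ETS motif AGGAA was found in 6 (31.6%, Wilson 15.4 to 54.0%), against 51.9% of all and 33.1% of windows 1 kb away, both within the interval. CACCC, bound by KLF factors, was found in 5 (26.3%, against 23.9% and 19.5%). With no match, the letters are absent from that window and nothing follows about the factor.

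**Figure D4:**
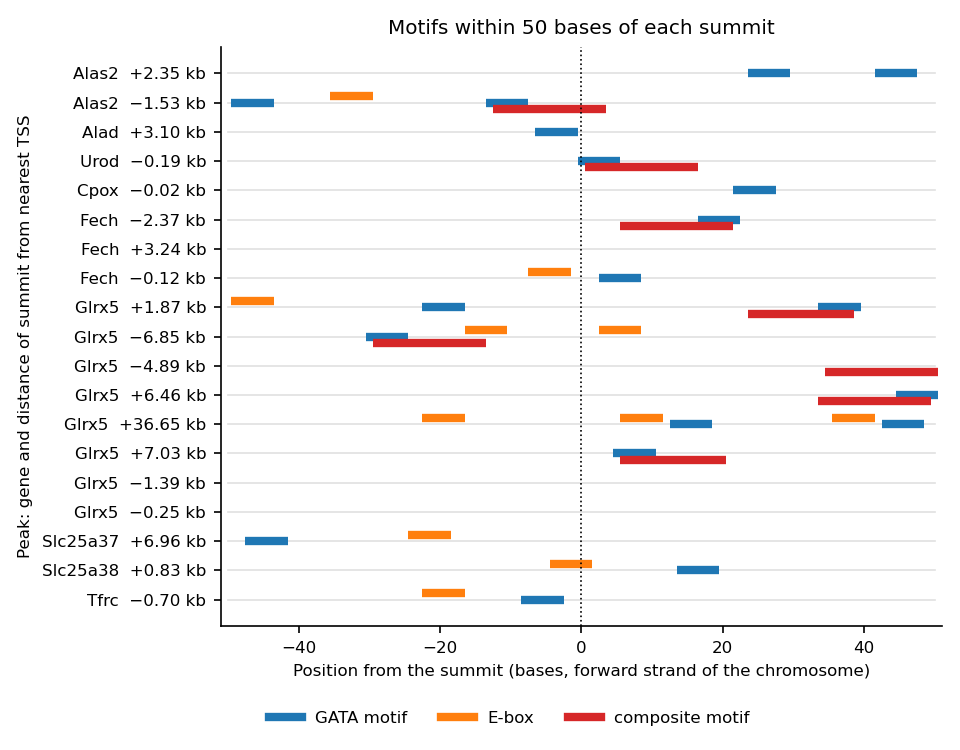
Positions of GATA motifs (blue), E-boxes (orange) and composites (red) from 50 bases before to 50 after the summit of each of the 19 peaks, on the forward strand. GATA motifs occur in 15 windows and E-boxes in 8. Composites occur in 8, and 5 of those are at Glrx5.

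Of 8 enzymes of heme synthesis examined, 7 had at least 1 SCL peak, again against 29.0% of protein-coding genes. Only Alas1 had none. The 7 had 12 peaks, and 5 of the enzymes (Uros, Urod, Cpox, Ppox and Fech) had a peak within 1 kb of a TSS, where 4.07% of protein-coding genes did. All but Uros and Ppox are among the genes described above and are counted here again. Since the enzymes were chosen with results of these data known, these shares are descriptions and were not tested. The 2 not yet described are Uros, which closes the ring, and Ppox, which oxidises it just before the iron step. The strongest Uros peak had a fold of 36.7 (30.8 to 43.5), 91 bp upstream of an internal TSS and within the gene. That of Ppox had 8.04 (6.24 to 10.2), 120 bp downstream of a TSS. Both held a GATA motif.

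A list of 48 other genes of heme and iron biology, which includes those 2 enzymes, had 15 genes with a peak (31.2%), close to the 29.0% of all coding genes, and 33 without. By group these were 4 of 16 in heme synthesis and mitochondrial transport, 1 of 9 in heme export and breakdown, 6 of 14 in iron uptake, storage and release, and 4 of 9 in iron sensing. The highest was Abcb10, a mitochondrial transporter needed for heme synthesis in red cells, at 120.1 (112.2 to 128.3), 5693 bp upstream of its TSS. Ncoa4, which sends ferritin to be broken down, had 68.4 (60.0 to 77.7). Pcbp1, an iron chaperone, had 53.0 (46.9 to 59.6), with the summit 16160 bp downstream of its TSS and outside the gene. Isca1, of iron-sulphur cluster assembly, had 47.3 (42.3 to 52.8), and Fbxl5, an iron-sensing ubiquitin ligase subunit, 27.7 (22.7 to 33.6). Among the genes without a peak were Hmox1 and Hmox2, the enzymes that break heme down, Tfr2, the other transferrin receptor, and Slc25a28 (mitoferrin-2), the widely expressed relative of Slc25a37. Those 4 were picked from the 33 after their values were seen, and they do not show which kinds of gene lack a peak.

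**Figure D5:**
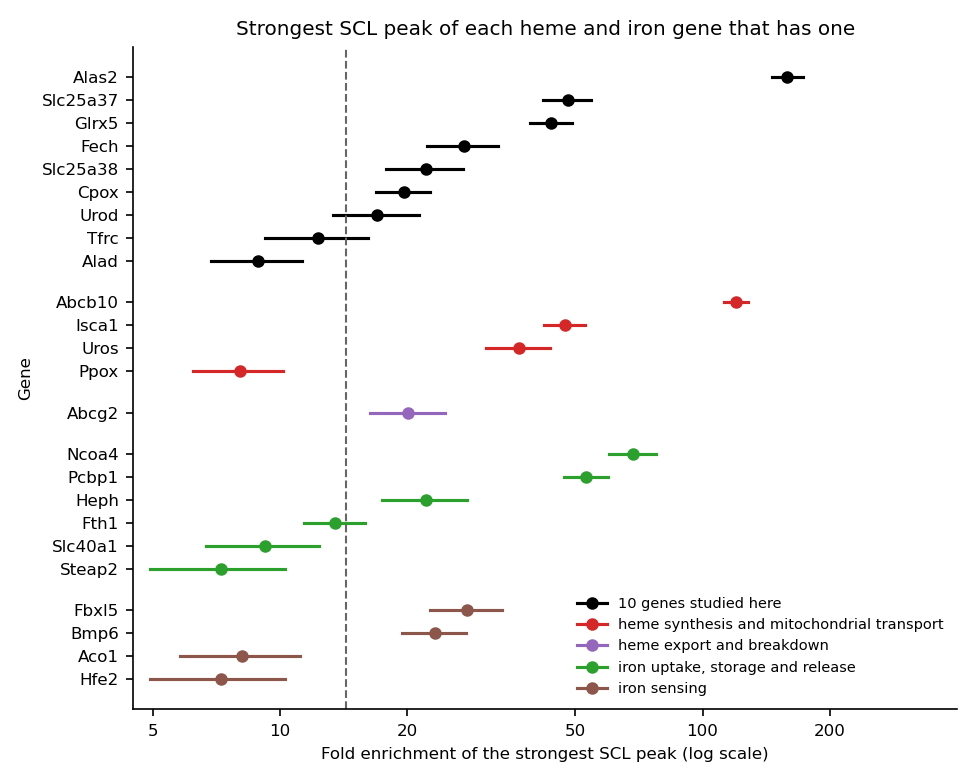
Fold enrichment (log scale) of the strongest peak of each gene that has one, for the 9 genes described (black) and 15 other heme and iron genes by group (colours), with 95% Poisson intervals as lines. The dashed line is the median over all 6458 coding genes with a peak (14.4). Alas2 and Abcb10 are the only genes above 100.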

How the data were processed

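SCL ChIP-seq and input libraries from day 3.5 FLK1+ cells, 2 of each, were grouped by the labels. Read pairs were mapped to mm9 by the authors, who removed duplicates, called peaks on merged ChIP against merged input and set the list with the irreproducible discovery rate, a measure of how well replicates rank the same peaks. Bowtie 1.1.2 and MACS2 2.0.10 are named in the submitters' processing notes. The deposited list is pooled, so precision rests on the fragments at each summit (24 or more).

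The deposited fold enrichment is a ratio of ChIP to local background. The deposited −log10 p and −log10 q come from MACS2. The deposited score repeats −log10 p and was not used. Fold and −log10 p were solved for summit fragments and background, which reproduced p to within 0.001 in 99.9% of peaks and all 19 described (tested on simulated data).

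Summits were assigned to the nearest of 69976 TSSs of 22238 protein-coding genes (GENCODE vM1, NCBIM37). All 10 genes matched by symbol, as did 45 of the 48 other pathway genes, and 3 matched by an older symbol. Coordinates count from 1. The genes and lists were chosen with earlier results of these data known. All 10 genes are named, with the 6 other pathway genes of highest fold (Uros among them) and the enzymes Uros and Ppox whatever their values. Another 4 genes without a peak were named after their values were seen. A single gene of the pathway list is not reported here, and it was left out of the counts. Python 3.11.15, numpy 2.4.6, pandas 2.3.3, scipy 1.17.1, statsmodels 0.14.6 and pysam 0.24.0 were used. Alternatives varied the TSS set, assignment, threshold, peak position and window.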

Additional observations from a re-analysis of the deposited data

How the results depend on the processing

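Of 45 values under alternative settings, 4 moved beyond the limits set for a change (1.5 times for a count, the confidence interval for a median or share) and 41 did not. Among the 41, the median fold rose from 15.1 to 22.1 at a fold of at least 10 and to 26.3 at a −log10 q of at least 50, as both limits remove low peaks. At that q limit, 10 member peaks were left of 19, against 40.6% of all peaks. Within 5 kb of a TSS in place of 1 kb lay 73.7%, against 20.7% of all peaks. With 100 bases on each side of the summit, a GATA motif was in 100% of the 19 windows, against 84.6% of all. Around the peak midpoint in place of the summit, the composite was in 15.8%, against 22.2% of all, with midpoints a median of 49 bases from the summits. Of the 4 that moved, the limits on q, distance and window are stricter or wider by construction, and for the midpoint the cause was not tested.

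The other TSS sets kept the same 19 peaks. Limiting peaks to the gene or 10 kb around it lost the distal Glrx5 peak. A fold of at least 10 left 8 of the 10 genes (without Alad; 19.9% of all coding genes), and the −log10 q limit 7 (without Alad and Tfrc; 15.5% of all). The other pathway genes with a peak numbered 14 to 16 of 48 with the other TSS sets and assignments. They numbered 10 at the fold limit (19.9% of all coding genes) and 10 at the q limit (15.5% of all). No paired analysis was possible because only 1 merged call was at hand, and for the same reason no replicate could be left out. Fragment numbers of 30 to 544 limit how finely peaks can be ordered.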
